A study of Mus musculus with 15 samples.

Results

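Transcripts of 10 genes of the insulin-like growth factor (IGF) and insulin axis were followed in quadriceps muscle of 15 mice. The 10 genes were taken from a written list and found by identifier among the 39179 gene rows of each mouse. They are the growth factor gene Igf1, the receptor genes Igf1r, Insr and Igf2r, the binding protein genes Igfbp3, Igfbp4, Igfbp5 and Igfbp6, and the receptor substrate genes Irs1 and Irs2. The study addressed how misreading in the mitochondria alters ageing muscle. Its V338Y mice are homozygous for an amino acid exchange in Mrps5, a protein of the small subunit of the mitochondrial ribosome, and are compared with wild-type Mrps5 mice.

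All mice had the C57BL/6 background. At 3 mo of age there were 4 mice of each genotype, and at 19 mo 3 wild-type and 4 V338Y animals. The exchange is carried in the germ line and is therefore present in every tissue and not in muscle alone. The numbers that the labels give to the mice were kept, so that the 3 mo groups hold mice 1 to 4, the 19 mo wild-type group mice 2, 4 and 5, and the 19 mo V338Y group mice 2 to 5. Between 8250653 and 18968132 counts were assigned to genes per mouse, and the 10 genes had 78 to 9518 counts each. Levels are given in CPM, which corrects the counts for library size with edgeR's TMM factors over all mice.

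The libraries of the 2 ages differed in the transcripts that distinguish the sexes. Xist, made from the inactive X chromosome, reached 506 to 631 CPM in every 19 mo mouse but 0.575 CPM or less in every 3 mo mouse. Ddx3y, a gene of the Y chromosome, reached 163 to 202 CPM in every 3 mo mouse but 0.0827 CPM or less in every 19 mo mouse, and Uty, Kdm5d and Eif2s3y had the same pattern. The study's methods describe the 3 mo mice as female, which these transcripts contradict. Age and this difference cannot be told apart in any comparison of 19 mo with 3 mo, whereas both genotypes of an age had the same pattern. Mrps5 itself was at 21.2 to 27.5 CPM at 3 mo and at 15 to 19.3 CPM at 19 mo, and as the exchange alters the protein, the level does not check the genotype.

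IGF-1 and insulin act through related receptor kinases, Igf1r and Insr, which phosphorylate the substrates Irs1 and Irs2 and through them engage PI3K, Akt and mTOR, while Akt holds FoxO transcription factors out of the nucleus. IGF-binding proteins hold most IGF in the extracellular space and either deliver or withhold it, and Igf2r clears IGF-2 and carries lysosomal enzymes. In muscle this pathway drives protein synthesis, fibre growth and glucose uptake, and muscle makes part of its own IGF-1 besides that supplied by the liver.

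On GRCm38 the growth factor gene Igf1 (ENSMUSG00000020053) spans chr10:87858265-87937042 on the plus strand. Among the receptor genes, Igf1r (ENSMUSG00000005533) spans chr7:67952827-68233668 on the plus strand, Insr (ENSMUSG00000005534) chr8:3122061-3279617 on the minus strand and Igf2r (ENSMUSG00000023830) chr17:12682406-12769664 on the minus strand. Igfbp3 (ENSMUSG00000020427, chr11:7206086-7213923) and Igfbp5 (ENSMUSG00000026185, chr1:72857932-72874884) are on the minus strand. Igfbp4 (ENSMUSG00000017493, chr11:99041244-99054392) and Igfbp6 (ENSMUSG00000023046, chr15:102144362-102149511) are on the plus strand. Irs1 (ENSMUSG00000055980, chr1:82233101-82291416) and Irs2 (ENSMUSG00000038894, chr8:10984681-11008458) are on the minus strand. All 10 are protein-coding, and the counts are of whole genes.

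Promoter sequences of RefSeq on GRCm38.p6, from 250 bases before to 50 bases after the annotated start, were at hand for 9 of the 10 genes, all but Insr. Stretches of the windows of Irs1, Irs2, Igf1r and Igf2r are shown because these 4 of the 9 held a marked motif. Igfbp3 and Igfbp5, which like them had higher transcript levels at 19 mo in both genotypes, held none of the marked motifs. Capitals mark the E-box CACGTG, the GC box GGGCGG and TGTTTTG, the core of an insulin response sequence. In Irs1 the E-box and the core share 2 letters, and in Irs2 they lie 1 base apart.
Irs1, chr1:82291531-82291566, minus strand: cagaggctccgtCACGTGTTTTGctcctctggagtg
Irs2, chr8:11008950-11008985, minus strand: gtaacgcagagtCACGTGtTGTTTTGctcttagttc
Igf1r, chr7:67952194-67952237, plus strand: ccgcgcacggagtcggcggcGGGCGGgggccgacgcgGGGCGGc
Igf2r, chr17:12769707-12769764, minus strand: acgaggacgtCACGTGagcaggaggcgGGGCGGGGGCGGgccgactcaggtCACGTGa
The E-box CACGTG was present in the promoters of Irs1, Irs2 and Igf2r, against 7.15% of all 32851 promoters of the same length, searched on both strands. TGTTTTG, a motif added after these sequences had been read, was in those of Irs1 and Irs2 and in 6.28% of all. The GC box was in those of Igf1r, Igf2r, Irs1 and Irs2, and in 35.7% of all. The search also covered the TATA box TATAAA and the CCAAT box, which are not marked. TATAAA was in the promoters of Igfbp4 and Igfbp6 (13.6% of all), and CCAAT in those of Igf1, Igfbp6 and Irs2 (37.4% of all). The letters TTCNNNGAA of a STAT5 site (8.3% of all promoters) and GTAAACA, 1 form of a FoxO site (3.65% of all), were in 0 of the 9 windows. This does not cover other sequences that these factors bind. The windows of Irs1, Irs2, Igf1r and Igf2r held 71.3%, 72%, 76% and 70.7% G and C, against a median of 52.7% over all promoters. The shares of all promoters are not matched for this. These matches describe letters and not binding.

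Of the 10 genes, 7 were up-regulated at 19 mo in the wild type and 8 in V338Y mice, and 0 were down-regulated in either. Over all genes, 36.2% of 13657 tested in wild-type and 46.9% of 13868 tested in V338Y mice differed with age (edgeR's quasi-likelihood test, Benjamini-Hochberg adjusted p under 0.05), and those higher at 19 mo were 18.3% and 24.4%, those lower 17.8% and 22.5%. Igf1r, Igf2r, Insr, Igfbp3, Igfbp5, Irs1 and Irs2 were called in both genotypes and Igfbp4 in V338Y mice, while Igf1 and Igfbp6 passed the test in neither. The median log2 fold change of the 10 genes was 0.52 (wild-type) and 0.62 (V338Y), against 0.019 and 0.072 over all genes tested. In each genotype, 5 of the 10 genes had no overlap between the ages, against 43.4% (wild-type) and 42.2% (V338Y) of all genes tested. As whole muscle was sequenced, more RNA per cell and more cells of a type that expresses a gene cannot be told apart.

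**Figure D1:**
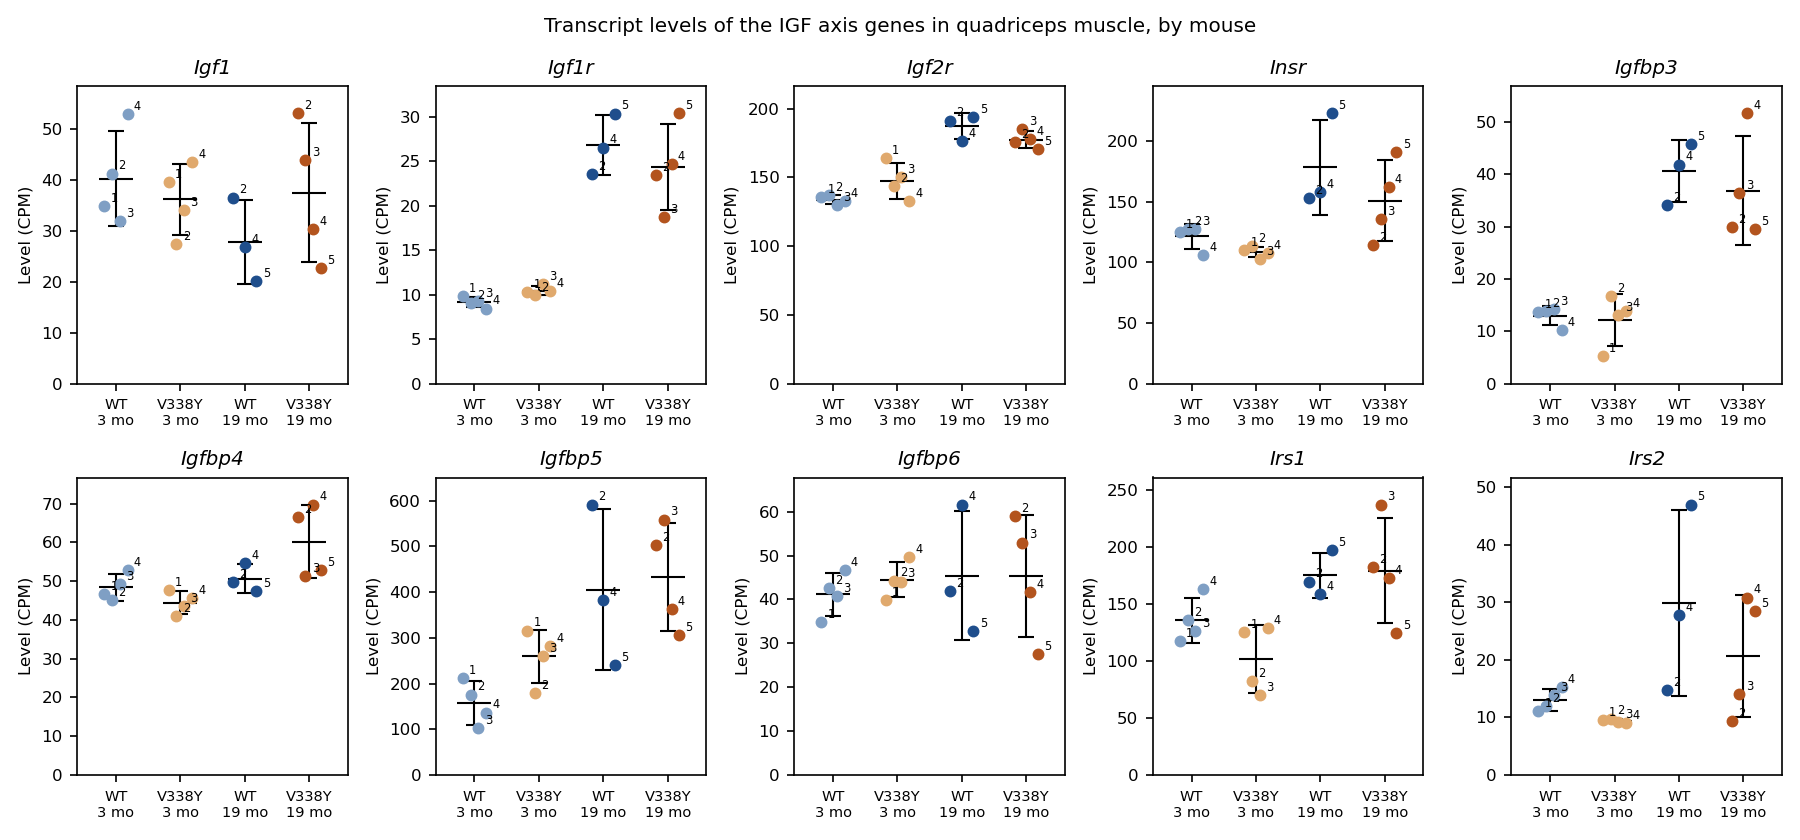
Transcript levels (CPM, linear axis from 0) of the 10 IGF axis genes in each of the 15 mice, with mouse numbers beside the points, 1 panel per gene and 1 column per group. Long bars are group means and whiskers the SD. Igf1r and Igfbp3 of all 19 mo mice lie above all 3 mo mice, whereas Igf1 and Igfbp6 overlap between all groups.

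Igf1 passed the test in 0 of the comparisons, and its groups overlapped throughout. At 3 mo it was at 34.9, 41.3, 32.0 and 53.0 CPM in wild-type mice 1 to 4, and at 39.7, 27.4, 34.2 and 43.6 CPM in V338Y mice 1 to 4. At 19 mo it was at 36.6, 26.8 and 20.2 CPM in wild-type mice 2, 4 and 5, and at 53.2, 43.9, 30.4 and 22.7 CPM in V338Y mice 2 to 5. In both 19 mo groups mouse 2 was the highest and mouse 5 the lowest. In wild-type mice the log2 difference of 19 mo from 3 mo was -0.52 ± 0.22 (SE; edgeR adjusted p = 0.0887), and in V338Y mice it was 0.064 ± 0.25 (edgeR adjusted p = 0.847). The wild-type difference passed the threshold with DESeq2 (adjusted p = 0.0478), without the filter on low counts (edgeR adjusted p = 0.0430) and without 19 mo mouse 2 (-0.78, edgeR adjusted p = 0.0248). Over the settings that left out no mouse or a chosen set of mice, rather than each mouse in turn, its adjusted p was 0.0430 to 0.227 (edgeR or DESeq2), and ranges over settings given for the other genes cover the same settings.

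As the liver is the main source of circulating IGF-1, transcripts of hepatocytes were measured beside Igf1. The summed level of 4 hepatocyte markers was 28.9 to 304 CPM in 3 mo wild-type, 2.81 to 72.4 in 3 mo V338Y, 1.24 to 7.48 in 19 mo wild-type and 5.01 to 41.4 CPM in 19 mo V338Y mice. Albumin (Alb) reached 244 CPM in 3 mo wild-type mouse 3, which had the lowest Igf1 of its group. Igfals and Igfbp1, partners of circulating IGF that the liver makes, were at most 4.38 and 0.20 CPM in any mouse. Igfbp2, which was below the filter on low counts, was at 1.33 CPM in 3 mo wild-type mouse 3. It was at 0.365, 0.355 and 0.453 CPM in mice 1, 2 and 4 of that group. The part of liver RNA in the levels of Igf1 was not tested.

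Igf1r, the receptor kinase for IGF-1, had one of the largest increases of the 10 genes. It was at 9.85, 9.08, 9.29 and 8.43 CPM in 3 mo wild-type mice 1 to 4, and at 10.3, 9.91, 11.2 and 10.4 CPM in 3 mo V338Y mice. Its 19 mo levels were 23.6, 26.5 and 30.4 CPM in wild-type mice 2, 4 and 5, and 23.4, 18.7, 24.7 and 30.4 CPM in V338Y mice 2 to 5. Every 19 mo mouse was above every 3 mo mouse, and the ages did not overlap. Igf1r rose 2.92-fold in wild-type mice (log2 1.55 ± 0.11 SE, edgeR adjusted p = 8.99e-05) and 2.35-fold in V338Y mice (1.23 ± 0.15, edgeR adjusted p = 2.41e-04). It passed the threshold under every alternative setting and without any 1 mouse.

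Insr, the insulin receptor, rose less and varied more among the old mice. At 3 mo it was at 125, 128, 127 and 106 CPM in wild-type mice 1 to 4 and at 111, 113, 103 and 108 CPM in V338Y mice. At 19 mo it was at 154, 158 and 223 CPM in wild-type mice 2, 4 and 5 and at 114, 136, 162 and 192 CPM in V338Y mice 2 to 5. The ages did not overlap within a genotype, although V338Y mouse 2 at 19 mo was within 1 CPM of its group's young maximum, and mouse 5 was the highest of both old groups. Insr rose 1.47-fold in wild-type mice (0.56 ± 0.14, edgeR adjusted p = 0.0145) and 1.40-fold in V338Y mice (0.49 ± 0.15, edgeR adjusted p = 0.0216). In V338Y mice the call was lost without 3 mo mouse 3 or mouse 4 or 19 mo mouse 4, with edgeR adjusted p of 0.0616, 0.0513 and 0.0512. In wild-type mice it was lost without 3 mo mice 2 and 3 together (edgeR adjusted p = 0.0639), and in both genotypes when mice of equal number were taken as blocks (edgeR adjusted p = 0.0811 and 0.0931). Between the ages, only 2 pairs of wild-type and 3 pairs of V338Y mice share a number. With blocks, only these pairs inform the age difference of any gene. Over the settings tried besides leaving out 1 mouse, the adjusted p of Insr (edgeR or DESeq2) was 0.00219 to 0.0811 in the wild type and 0.00961 to 0.0931 in V338Y mice.

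Igf2r, which takes IGF-2 and lysosomal enzymes into the cell, was at 130 to 137 CPM in 3 mo wild-type and at 133 to 164 CPM in 3 mo V338Y mice. At 19 mo it was at 176 to 194 CPM in wild-type and at 171 to 185 CPM in V338Y mice, and the ages did not overlap within a genotype. Igf2r rose 1.40-fold in wild-type mice (0.49 ± 0.078, edgeR adjusted p = 0.00192) and 1.21-fold in V338Y mice (0.28 ± 0.091, edgeR adjusted p = 0.0304). The V338Y call was lost in 5 of 8 fits without 1 mouse (without mouse 2, 3 or 4 of 3 mo or mouse 3 or 4 of 19 mo), in which the log2 fold change stayed between 0.23 and 0.29, and without the filter on low counts (edgeR adjusted p = 0.114, range over settings 0.00948 to 0.114). With mice of equal number taken as blocks, the replicate block, both calls were lost, at 0.45 in wild-type and 0.35 in V338Y mice (edgeR adjusted p = 0.0546 and 0.0551). Airn, the antisense transcript that overlaps Igf2r, was at 7.03 to 10.5 CPM at 3 mo and at 10.2 to 16.7 CPM at 19 mo, and rose by 0.81 on the log2 scale in both genotypes (edgeR adjusted p = 0.00138 and 0.00332). The library kit kept strand, but whether the counting used it is not given in the sources used here, so that reads of Airn and Igf2r may not be separated.

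Igfbp3, which carries most IGF in blood and is also made in tissues, had the largest fold change of the 10 genes in both genotypes. At 3 mo it was at 13.7, 13.8, 14.2 and 10.2 CPM in wild-type mice 1 to 4 and at 5.17, 16.7, 13.1 and 13.8 CPM in V338Y mice. Old wild-type mice 2, 4 and 5 had 34.1, 41.9 and 45.7 CPM and old V338Y mice 2 to 5 had 30.0, 36.3, 51.7 and 29.5 CPM. The lowest old mouse was above the highest young mouse, and V338Y mouse 1 at 3 mo was the lowest of all. Igfbp3 rose 3.12-fold in wild-type mice (1.64 ± 0.14, edgeR adjusted p = 1.23e-04) and 3.08-fold in V338Y mice (1.63 ± 0.32, edgeR adjusted p = 0.00314), and passed the threshold under every alternative setting and without any 1 mouse.

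Igfbp5, a binding protein that muscle cells secrete and that binds to the matrix, was the most variable of the 4 binding protein genes in old wild-type mice. At 3 mo it was at 213, 176, 103 and 137 CPM in wild-type mice 1 to 4 and at 316, 179, 260 and 282 CPM in V338Y mice. The 19 mo levels were 592, 383 and 241 CPM in wild-type mice 2, 4 and 5 and 502, 559, 363 and 307 CPM in V338Y mice 2 to 5. The ages did not overlap in wild-type mice, whereas V338Y mouse 5 at 19 mo was below V338Y mouse 1 at 3 mo. Igfbp5 rose 2.59-fold in wild-type mice (1.37 ± 0.31, edgeR adjusted p = 0.00847) and 1.68-fold in V338Y mice (0.75 ± 0.22, edgeR adjusted p = 0.0194). The V338Y call was at the threshold without 19 mo mouse 3 (edgeR adjusted p = 0.05), and the wild-type call was lost without 3 mo mice 2 and 3 together (edgeR adjusted p = 0.0639, range over settings 6.24e-04 to 0.0639).

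Igfbp4, an inhibitor of IGF action that the protease PAPP-A cleaves, was at 45.1 to 53.0 CPM in 3 mo wild-type, 41.1 to 47.8 in 3 mo V338Y and 47.5 to 54.7 CPM in 19 mo wild-type mice. In 19 mo V338Y mice 2 to 5 it was at 66.6, 51.4, 69.8 and 52.8 CPM, all above the 3 mo V338Y mice. It rose 1.36-fold with age in V338Y mice (0.45 ± 0.12, edgeR adjusted p = 0.0150), and the difference in wild-type mice was 0.067 ± 0.094 (edgeR adjusted p = 0.600). The difference between these changes did not pass the test over all genes (edgeR, interaction 0.37 ± 0.15, adjusted p = 0.484).

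Igfbp6, which prefers IGF-2 over IGF-1, had means of 41.2 ± 4.92 (SD, n = 4) and 44.5 ± 4.01 CPM (n = 4) in the wild-type and V338Y groups of 3 mo, while the old groups had 45.4 ± 14.8 (n = 3) and 45.3 ± 13.8 CPM (n = 4). The old mice ranged from 27.6 to 61.6 CPM and enclosed all young mice. The log2 differences with age were 0.14 ± 0.19 in wild-type and 0.040 ± 0.20 in V338Y mice (SE; edgeR adjusted p = 0.587 and 0.886).

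Irs1, a receptor substrate through which both ligands act on muscle, was at 117, 136, 126 and 163 CPM in 3 mo wild-type mice 1 to 4 and at 125, 82.5, 70.4 and 129 CPM in 3 mo V338Y mice. Levels of 170, 159 and 197 CPM were found at 19 mo in wild-type mice 2, 4 and 5 and of 182, 237, 173 and 124 CPM in V338Y mice 2 to 5. The ages overlapped in both genotypes, through wild-type mouse 4 at 3 mo and V338Y mouse 5 at 19 mo. Irs1 rose 1.29-fold in wild-type mice (0.37 ± 0.13, edgeR adjusted p = 0.0449) and 1.78-fold in V338Y mice (0.83 ± 0.23, edgeR adjusted p = 0.0165). The wild-type call was lost without any 1 of mice 1, 2 and 3 of 3 mo or mice 2, 4 and 5 of 19 mo, in a fit of all 15 mice (edgeR adjusted p = 0.195), without the filter on low counts (0.0592) and with the replicate block (0.15, edgeR adjusted p = 0.515), with a range over settings of 0.0309 to 0.515. The V338Y call was lost without 3 mo mouse 2 (0.74, edgeR adjusted p = 0.0509).

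Irs2, the substrate through which insulin acts in liver and beta cells and which muscle also expresses, had the widest spread among the old mice. At 3 mo it was at 11, 12, 13.9 and 15.2 CPM in wild-type mice 1 to 4 and at 9.48, 9.82, 9.27 and 8.99 CPM in V338Y mice. At 19 mo it was at 14.8, 27.8 and 47.0 CPM in wild-type mice 2, 4 and 5 and at 9.32, 14.1, 30.8 and 28.5 CPM in V338Y mice 2 to 5. Mouse 2 of either old group was within the range of the young mice of its genotype, and mice 4 and 5 were the highest. Irs2 rose 2.28-fold in wild-type mice (1.19 ± 0.32, edgeR adjusted p = 0.0179) and 2.22-fold in V338Y mice (1.15 ± 0.33, edgeR adjusted p = 0.0175). Without 19 mo wild-type mouse 5 the wild-type difference was 0.70 (edgeR adjusted p = 0.0504, range over settings 6.62e-04 to 0.108). With the replicate block both calls were lost, at 0.60 in wild-type and 0.80 in V338Y mice (edgeR adjusted p = 0.0704 and 0.0678).

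Per kilobase of exon, the genes of binding proteins led and Igf1r was the lowest in every group. In 3 mo wild-type mice, Igfbp6 was at 37.1 ± 4.42 and Igfbp5 at 26.1 ± 7.95 CPM per kb (mean ± SD, n = 4), followed by Irs1 at 14.8 ± 2.16, Igf2r at 14.4 ± 0.347, Igfbp4 at 11 ± 0.782 and Insr at 8.84 ± 0.747 CPM per kb. Igfbp3 at 4.14 ± 0.585, Igf1 at 4.07 ± 0.939, Irs2 at 2.06 ± 0.298 and Igf1r at 0.546 ± 0.0348 CPM per kb came last. The neighbours Igfbp3 and Igf1 differed by less than the SD of either, and Irs1 and Igf2r by less than the SD of Irs1 but more than that of Igf2r. At 19 mo Igfbp5 was first in both genotypes, with 67.5 ± 29.4 in wild-type and 72.1 ± 19.6 CPM per kb in V338Y mice, and Igf1r was at 1.6 ± 0.203 and 1.45 ± 0.287 CPM per kb. With the length of the longest transcript in place of all exons, Insr in 3 mo wild-type mice was at 13.0 CPM per kb and came before Igfbp4 at 12.7, and Igfbp5, Igfbp6 and Igf1r kept their places.

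In each age, V338Y mice were compared with wild-type mice to ask whether the exchange in Mrps5 altered the axis. At both ages 0 of the 10 genes passed the test, which does not show that their levels were equal. Over all genes, 0.075% of 13333 at 3 mo and 0.0434% of 13833 at 19 mo passed the same test (edgeR, adjusted p under 0.05), that is 10 and 6 genes. At 3 mo, 2 of the 10 genes had no overlap between the genotypes, against 4.71% of all genes, and at 19 mo 0 of the 10, against 9.79%. Irs2 was lower in all 4 V338Y mice than in all 4 wild-type mice at 3 mo, at 9.39 ± 0.349 against 13.0 ± 1.88 CPM, and its log2 difference of -0.47 (95% interval -0.72 to -0.22) had an unadjusted edgeR p of 0.00163 and an adjusted p of 0.269. Igf1r, at 10.4 ± 0.528 against 9.16 ± 0.584 CPM, was higher in all 4 V338Y mice, with a difference of 0.19 (95% interval -0.018 to 0.40, edgeR adjusted p = 0.552). Igfbp5 at 3 mo was at 259 ± 58.4 CPM in V338Y and 157 ± 47.7 CPM in wild-type mice, a difference of 0.73 (95% interval 0.25 to 1.21, edgeR adjusted p = 0.397), and the groups overlapped. DESeq2 called 66 genes at 3 mo and 64 at 19 mo over all genes, with 0 of these 10 at either age.

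At 19 mo all 10 genes overlapped between the genotypes. Igf1 averaged 37.6 ± 13.6 CPM (SD, n = 4) in the V338Y group against 27.9 ± 8.24 CPM (n = 3) in the wild-type group, with a log2 difference of 0.45 (95% interval -0.24 to 1.15, edgeR adjusted p = 0.675). Irs2 was at 20.7 ± 10.6 and 29.9 ± 16.2 CPM, a difference of -0.49 (95% interval -1.58 to 0.60, edgeR adjusted p = 0.772). Igfbp4 had the smallest p of the 10, with a difference of 0.28 (95% interval -0.061 to 0.61, edgeR adjusted p = 0.597). The intervals of all 3 include 0. The replicate block called 110 genes at 19 mo in place of 6, and again 0 of the 10. In the fit of age and genotype together, 0 of the 10 and 0 of all 14128 genes had an interaction (edgeR), against 1361 genes with an unadjusted p under 0.05, and DESeq2 called 28 genes and 0 of the 10.

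**Figure D2:**
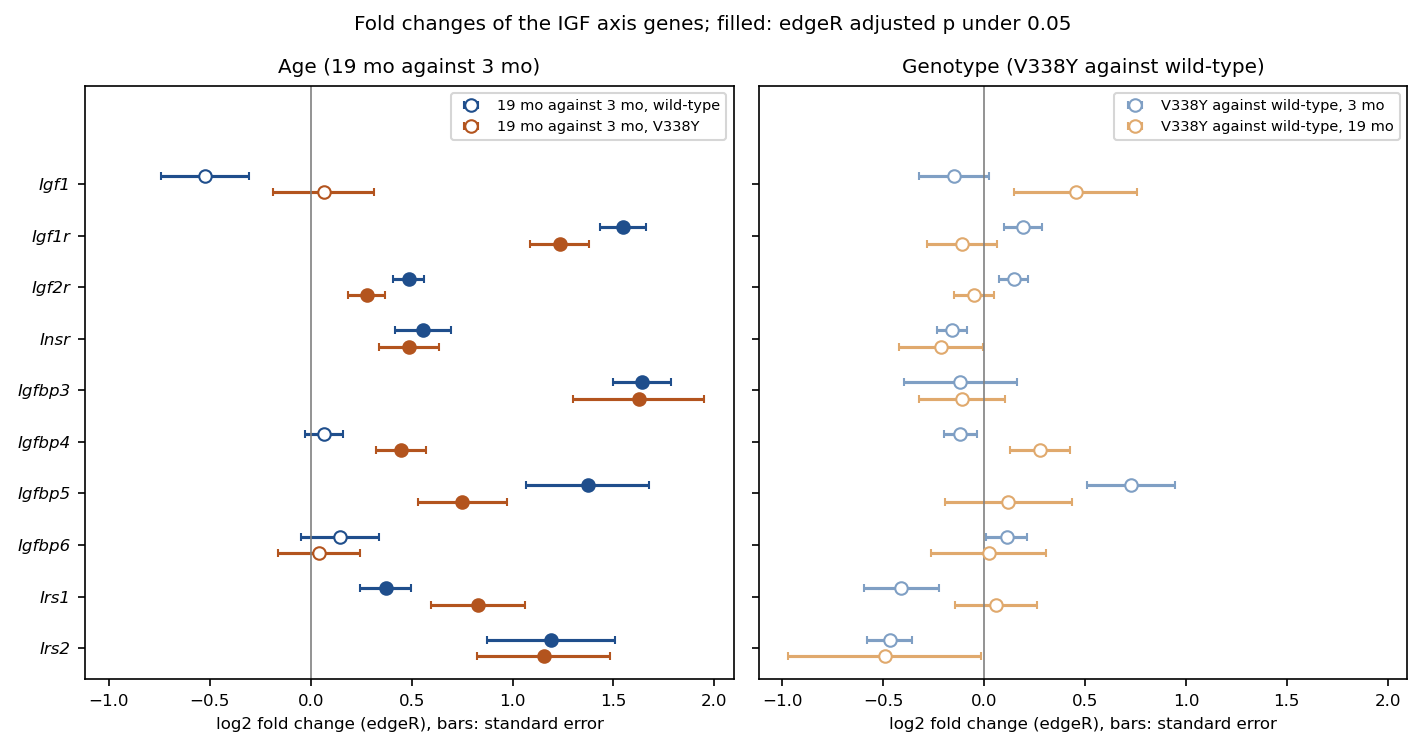
log2 fold changes from edgeR with their standard errors for the 10 IGF axis genes, on the left 19 mo against 3 mo in wild-type and V338Y mice and on the right V338Y against wild-type at each age. Filled points have an adjusted p under 0.05. Igf1r and Igfbp3 have the highest values on the left in both genotypes, between 1.23 and 1.64, and 0 points on the right are filled.

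Within groups, several of the 10 genes varied together or in opposite directions. With the group means subtracted on the log2 scale, Igf1 and Insr varied in opposite directions over the 15 mice (Pearson r = -0.87, Spearman rho = -0.87). The coefficient was -0.67 in the 8 mice of 3 mo, -0.96 in the 7 mice of 19 mo, and -0.78 without the 2 mice farthest from the median of Igf1. Insr and Igfbp6 had r = -0.84 over all mice, with -0.52 at 3 mo and -0.88 at 19 mo. Insr and Irs2 had r = 0.81 over all mice, with -0.55 at 3 mo and 0.91 at 19 mo. Igfbp5 and Irs2 varied in opposite directions at both ages (r = -0.76 over all mice, -0.71 at 3 mo and -0.91 at 19 mo). Igf1 and Irs2 had r = -0.75 over all mice, with 0.23 at 3 mo and -0.95 at 19 mo. Irs2 varied little among the 3 mo V338Y mice (8.99 to 9.82 CPM), so that its 3 mo coefficients rest mainly on the wild-type mice. Whether a coefficient differs between the ages was not tested. Igf1 and Igfbp5 varied together (r = 0.72, with 0.42 at 3 mo and 0.90 at 19 mo), and Igf1 and Igf1r in opposite directions (r = -0.71, with -0.39 at 3 mo and -0.82 at 19 mo). These 7 of 45 pairs had the highest coefficients regardless of sign. They describe 15 libraries that share their normalization, and no test was applied.

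**Figure D3:**
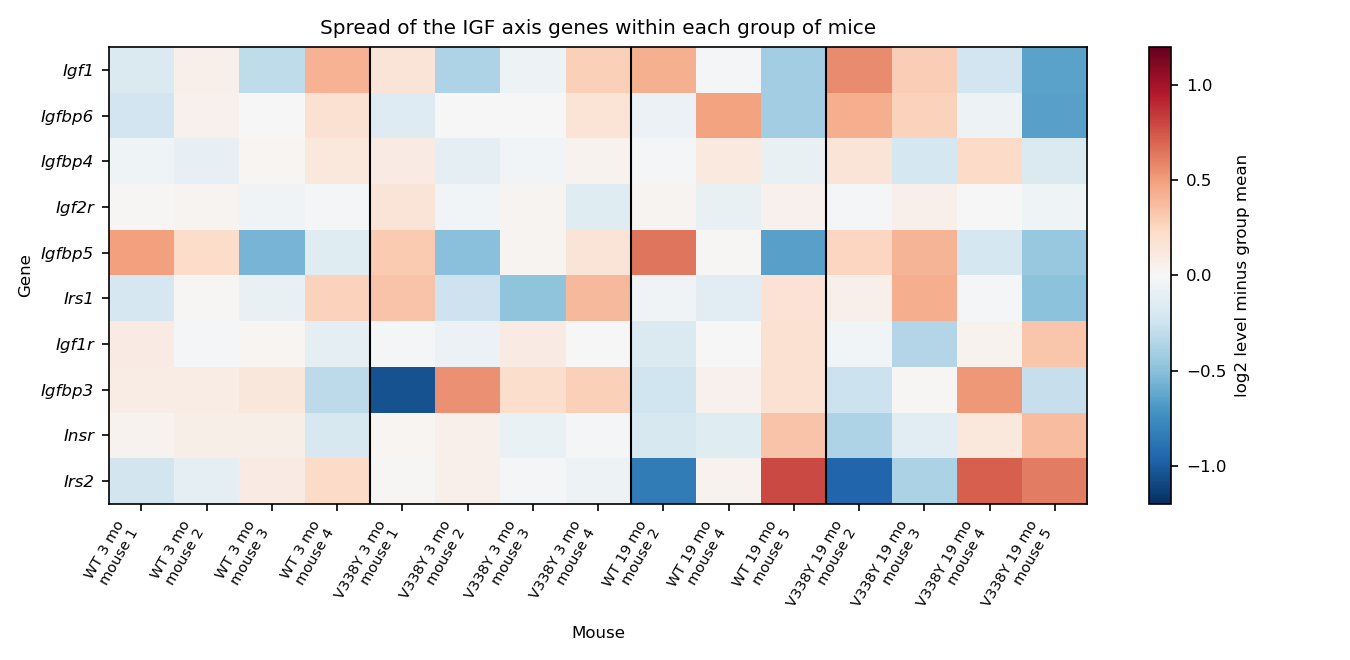
Deviation of the log2 level (CPM + 0.5) of each IGF axis gene from the mean of its group, by mouse, in a colour scale from blue (lower) to red (higher), with black lines between the 4 groups. In the 19 mo mice of both genotypes, mouse 2 has high Igf1 with low Insr and Irs2, and mouse 5 low Igf1 with high Insr and Irs2.

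In the old mice this pattern followed the mouse number in both genotypes. Foxo1, the transcription factor that insulin signalling restrains, was at 22.4, 35.8 and 64.3 CPM in 19 mo wild-type mice 2, 4 and 5 and at 21.5, 24.3, 42.3 and 54.6 CPM in V338Y mice 2 to 5, in the order of Insr in both groups. Myh7, the myosin of slow fibres, was at 9.95, 181 and 320 CPM in the same wild-type mice and at 28.3, 0.604, 26.3 and 1210 CPM in the V338Y mice. Mouse 5 had the highest Myh7 of both groups, and the fast-fibre myosin Myh4 was at 40204 and 22410 CPM in these mice, the lowest of their groups. The part of fibre composition in these levels was not tested. In a fit without both mice numbered 5, added after the data were seen, Igf1r, Igf2r, Insr, Igfbp3 and Igfbp5 were called with age in both genotypes. Irs1 and Irs2 were not called in wild-type mice (edgeR adjusted p = 0.141 and 0.0504). That fit keeps only wild-type mice 2 and 4 at 19 mo, which also differ in Myh7, and it does not test fibre composition. The labels give neither feeding state nor time of day. A supplementary legend of the study, on its metabolite data, states that its mice had food ad libitum before they were killed.

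Genes that varied most like each of the 10 over the 15 mice, with group means removed, were sought among 9520 genes of at least 5 CPM on average. Irs2 varied most like Slc38a2 (r = 0.96), Flcn (0.94) and Pde4d (0.93), and Insr most like Tfdp2 (0.95), Slc25a33 (0.94) and Mast2 (0.94). Igf1 varied most like Aimp2 (0.93), Pak1 (0.92) and Srebf2 (0.91), and Igf1r most like Acer2 (0.94), Lpin2 (0.94) and Luc7l (0.93). For Igfbp6 the nearest genes were Snx2 (0.95), Pi16 (0.93) and Fstl1 (0.92), of which Pi16 is a fibroblast marker. Igfbp5 was followed by Extl2 (0.91), Exoc7 (0.90) and Lingo3 (0.90), Igfbp3 by Ddx5 (0.91), Cwc22 (0.90) and Igbp1 (0.89), and Irs1 by Tob1 (0.91), Unc5a (0.88) and Pacsin3 (0.88). Igf2r and Igfbp4 had the lowest leading values, 0.88 with Pelp1 and 0.90 with Fam129b.

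Of 15 other ligands, binding proteins, their proteases and related receptors, 9 could be tested with age. Ins2 had 0 counts in every mouse, and Ins1, Igfbp1, Igfbp2, Insrr and Irs4 were also below the filter. In wild-type mice 3 of the 9 rose and 0 fell, and in V338Y mice 4 rose and 0 fell, near the shares of all genes called with age, 36.2% and 46.9%. Igf2, the fetal growth factor and the ligand of Igf2r, was at 2.12 to 5.02 CPM in 3 mo and 10.1 to 16.2 CPM in 19 mo wild-type mice and rose 1.99 on the log2 scale (edgeR adjusted p = 8.80e-04). In V338Y mice Igf2 was at 2.57 to 11.3 CPM at 3 mo and 6.94 to 10.2 CPM at 19 mo, the groups overlapped, and it was not called. Stc2, an inhibitor of the protease PAPP-A that frees IGF from Igfbp4, rose by 1.49 (wild-type) and 1.75 (V338Y) (edgeR adjusted p = 0.00688 and 3.92e-04). Stc1, its relative and also among the genes counted as rising, was called higher in both, by 1.56 and 2.42 (edgeR adjusted p = 0.0374 and 0.0263). It was at 0.398 CPM or less in every 3 mo mouse and passed the filter on low counts through the 19 mo groups only. The sizes of its changes are therefore uncertain. In V338Y mice its ages overlapped, with 0.257 CPM in the lowest 19 mo and 0.381 CPM in the highest 3 mo mouse, whereas in wild-type mice they did not.

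Growth hormone induces Igf1 through Jak2 and Stat5. Jak2, at 99.5 to 123 CPM at 3 mo and 45.7 to 69.5 CPM at 19 mo over both genotypes, fell by 1.16 on the log2 scale in the wild type and by 0.94 in V338Y mice (edgeR adjusted p = 1.46e-04 and 3.60e-04). In the list of 9 tested genes of this axis, 1 rose and 1 fell in wild-type mice, below the 36.2% of all genes called, and 2 rose and 2 fell in V338Y mice, near the 46.9% of all genes. Sh2b1, an adaptor of Jak2, rose in both genotypes by 0.39 and 0.41. Stat5a rose in V338Y mice (0.67, edgeR adjusted p = 0.00276), and Cish, a target of Stat5 that restrains it, fell by 1.88 there (edgeR adjusted p = 0.0325) and had a difference of -1.40 in wild-type mice (edgeR adjusted p = 0.173). The list medians were 0.040 and -0.043, close to those of all genes.

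Among 14 adaptors and inhibitors of the receptors, 5 rose and 1 fell in wild-type mice, and 6 rose and 1 fell in V338Y mice, with medians of 0.33 and 0.50. Their shares called were near those of all genes (36.2% and 46.9%). Grb10, an adaptor that inhibits Igf1r and Insr, rose by 0.71 and 0.43 (edgeR adjusted p = 0.00308 and 0.0275). Gab1 and Sos1, which connect receptors to PI3K and Ras, rose in both genotypes by between 0.57 and 0.72. Ptpn11, the phosphatase SHP2, fell by 0.54 and 0.49.

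In the 16 genes of PI3K and Akt, 5 rose and 2 fell in wild-type mice, and 4 rose and 2 fell in V338Y mice, against 36.2% and 46.9% of all genes called in either direction. Akt2, the Akt form of insulin-stimulated glucose uptake, fell by 0.46 and 0.44 (edgeR adjusted p = 0.00644 and 0.00565). Phlpp1 and Phlpp2, phosphatases that inactivate Akt, rose in both genotypes by between 0.44 and 0.65. Pik3cb, a catalytic subunit, rose by 0.55 and 0.76.

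Of 18 tested genes of the mTOR pathway, 6 rose and 3 fell in wild-type mice and 6 rose and 4 fell in V338Y mice, not far above the 36.2% and 46.9% of all genes, and the medians were 0.28 and 0.12. Rptor, the defining subunit of mTORC1, rose by 0.98 and 0.90 (edgeR adjusted p = 3.61e-04 and 9.60e-05). Its inhibitor Tsc2 rose as well, by 0.73 and 0.64, as did Eif4ebp2, a repressor of translation that mTORC1 inactivates, by 1.24 in both genotypes. Eif4e, the cap-binding protein that it sequesters, fell by 0.65 and 0.67, and Rheb, the activator of mTORC1, by 0.36 and 0.56. Sesn3, a sestrin that FoxO induces, rose by 1.03 and 1.1.

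In the glucose branch, 4 of 9 genes rose and 1 fell in wild-type mice (36.2% of all genes called), and 2 rose and 1 fell in V338Y mice, fewer than the 46.9% of all genes. Tbc1d1, a substrate of Akt and AMPK that retains glucose transporters inside the cell, rose by 1.26 and 1.34 (edgeR adjusted p = 0.00259 and 4.00e-04). The glucose transporter Slc2a4 fell by 0.38 in wild-type mice (edgeR adjusted p = 0.00965), and its difference in V338Y mice was -0.28 (edgeR adjusted p = 0.0752). Among 11 FoxO factors and targets, 2 rose and 0 fell in wild-type mice and 3 rose and 0 fell in V338Y mice, close to the 18.3% and 24.4% of all genes called higher and below the shares called in either direction. Foxo1 rose by 1.37 and 1.5 and Foxo3 by 0.94 and 0.77, while the ubiquitin ligase Fbxo32 had 0.76 in wild-type mice without passing the test (edgeR adjusted p = 0.0724). In V338Y mice its mean was lower at 19 mo, at 715 ± 517 (SD) against 999 ± 353 CPM at 3 mo, also without a call.

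Between genotypes, 0 genes of these 7 lists were called at 3 mo or at 19 mo. The smallest p of the lists were those of Ddit4l, an inhibitor of mTOR signalling, at 3 mo (0.47, edgeR adjusted p = 0.160) and of Stat5a at 19 mo (0.65, edgeR adjusted p = 0.383). Stat5a was at 17.7 to 22.1 CPM in the 19 mo V338Y mice and at 11.5 to 13.4 CPM in the 19 mo wild-type mice, which did not overlap.

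**Figure D4:**
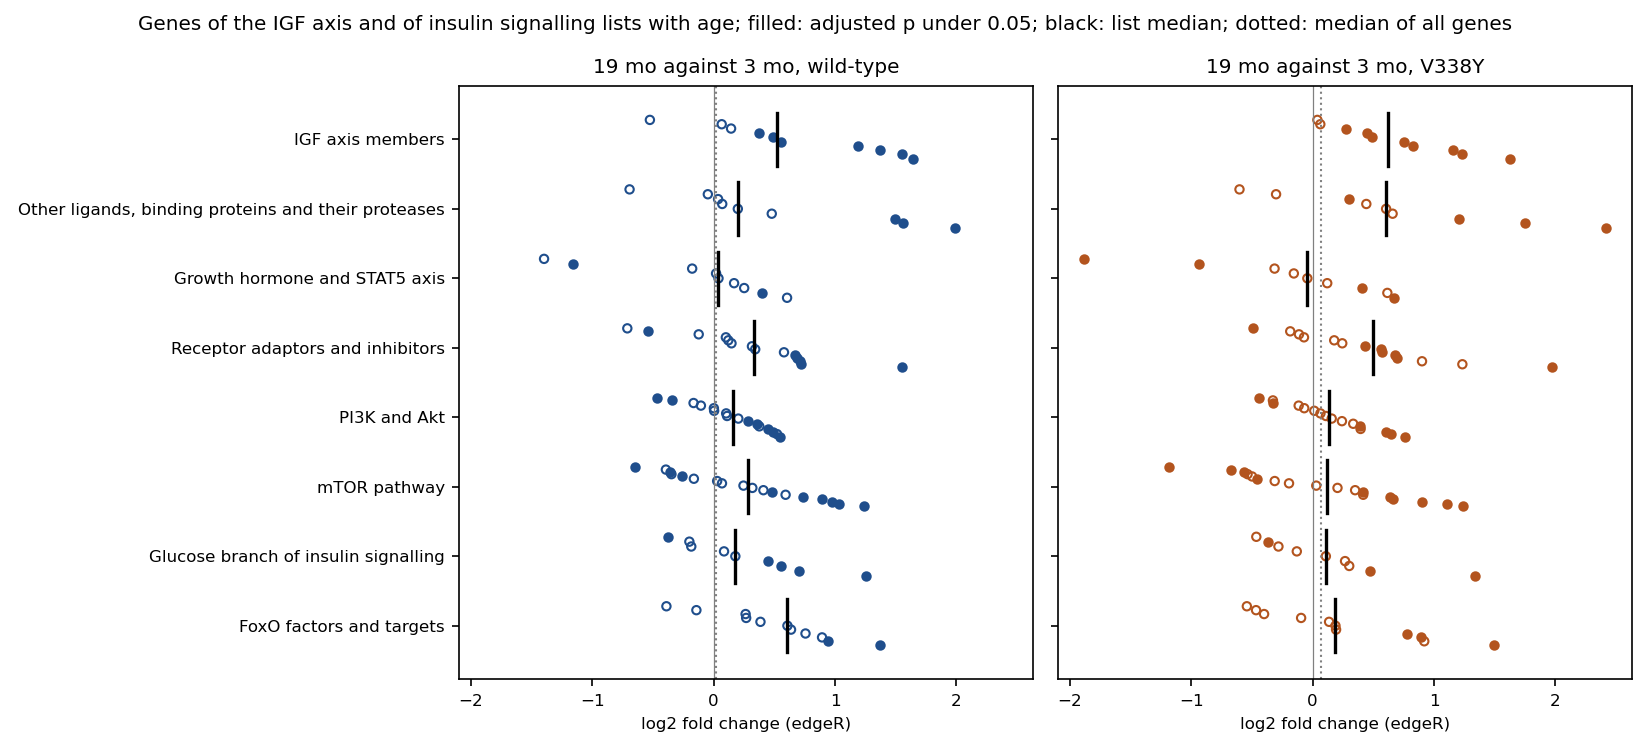
log2 fold changes from edgeR, 19 mo against 3 mo, of each gene of the IGF axis and of 7 other lists, in wild-type mice on the left and V338Y mice on the right. Filled points have an adjusted p under 0.05, black bars are list medians, and the dotted line is the median of all genes tested, 0.019 and 0.072. The bars of the IGF axis are at 0.52 and 0.62, and those of PI3K and Akt at 0.16 and 0.13.

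Markers of several cell types were measured beside the IGF axis. Counts of those that rose are to be read against the 18.3% (wild-type) and 24.4% (V338Y) of all genes called higher with age. Counts of those that fell are to be read against the 17.8% (wild-type) and 22.5% (V338Y) called lower. Of 6 markers of pericytes and smooth muscle, 5 rose in both genotypes, and their sum was 322 to 432 CPM at 3 mo and 459 to 734 CPM at 19 mo. Of 8 endothelial markers, 3 rose in wild-type and 4 in V338Y mice, and of 8 macrophage markers, 5 in both. Of 10 fibroblast markers, the collagens Col1a1, Col1a2 and Col3a1 fell in both genotypes, and Pdgfra rose in wild-type mice. Adipocyte markers had differences of opposite sign in the 2 genotypes, as all 8 had lower values at 19 mo in wild-type mice, with a median of -0.86 and 2 called, and all 8 had higher values in V338Y mice, with a median of 1.05 and 3 called. Their sum was 256 to 1004 CPM in 3 mo and 159 to 375 CPM in 19 mo wild-type mice, and 158 to 587 CPM in 3 mo and 194 to 1069 CPM in 19 mo V338Y mice, so that the ages overlapped in both genotypes, and none of the 8 was among genes with an interaction, of which edgeR called 0 in all (1361 at an unadjusted p under 0.05). Of 6 Schwann cell markers, 2 rose in wild-type and 5 in V338Y mice, and of 6 tenocyte markers 1 and 2. Of 6 markers of B and plasma cells, 1 of 2 tested rose in wild-type and 5 of 6 in V338Y mice, and of 5 tested satellite cell markers 0 rose in either and 1 fell in V338Y mice. The sum of 10 muscle fibre markers was 254820 to 312661 CPM at 3 mo, and at 19 mo 225563 to 278227 CPM in wild-type and 163265 to 258287 CPM in V338Y mice. Neutrophil markers summed to 621 CPM in 19 mo V338Y mouse 5 and to 4.80 CPM or less in wild-type mice of either age. The part of these cell types in the levels of the 10 genes was not tested.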

How the data were processed

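Quadriceps RNA of the 15 mice was sequenced as single-end reads of stranded libraries. Per the labels, STAR 2.4.2a and the mouse build GRCm38 were used, whereas the methods of the study name RSEM and an older build. The authors deposited an expected count per gene and mouse as whole numbers without normalization, which was used as deposited. Symbols and positions on GRCm38 were matched to 37607 of 39179 identifiers.

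A gene was tested when it had 10 counts or more in 50% or more of the mice in either group compared, which all 10 genes passed. Groups were compared with edgeR 4.0.16 (R 4.3.3, TMM, quasi-likelihood test). Only mice of the groups compared entered a fit, except that the interaction used all 15, and p-values were adjusted by Benjamini-Hochberg over all genes tested, with a threshold of 0.05. Standard errors and 95% intervals come from the same fit. The code was tested on simulated data.

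Genes and lists were chosen with earlier results of these data known. From each of 7 pathway lists the genes with the smallest adjusted p were taken, up to 4 per age and up to 2 per genotype comparison, of which those bearing on a sentence are given. Eif4e, Rheb, Airn, Igfbp1 and Igfbp2 were named outside this rule, after their values were seen. The alternatives were RLE and upper-quartile factors, no filter, filterByExpr, DESeq2 1.42.0, a replicate block by mouse number, all mice in 1 fit, and each mouse left out.

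Mice with equal numbers deviated together at 19 mo, with correlations of 0.132 to 0.400 in the 3 pairs of opposite genotype, above the 0.1 required of every pair. This pairing comes from the data and not from the labels. The authors' pathway analysis was not used here. Single values of some genes on the pathway lists are not reported here, while the counts and medians of those lists cover every measured member.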

Additional observations from a re-analysis of the deposited data

Results flagged for a closer look

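Wild-type mouse 4 of 3 mo lay apart from the other 3 mice of its group in Insr, at 106 against 125 CPM for the next lowest mouse, a gap of 0.879 of the range. The same mouse lay apart in Igfbp3, at 10.2 against 13.7 CPM, a gap of 0.869 of the range. Both gaps exceed Dixon's 95% critical value for 4 mice. These are 2 of 30 groups of 4 mice compared over the 10 genes, and chance alone passes it in about 1 of 20. The 19 mo wild-type group, with 3 mice, was not compared in this way. This mouse also had the highest Igf1, Irs1, Irs2 and Igfbp4 of its group, and both calls with age in wild-type mice were also made without it.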

How the results depend on the processing

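The calls of Igf1r and Igfbp3 with age held under every alternative in both genotypes. In the genotype comparisons and the interaction, 0 of the 10 genes were called under any alternative, with 0 calls also in each fit without 1 mouse. Of the 10 genes, 5 to 7 were called with age in wild-type and 6 to 8 in V338Y mice when 1 mouse was left out. Over all genes, the same fits called 3431 to 4837 in wild-type and 5182 to 6448 in V338Y mice. A fit without 3 mo wild-type mice 2 and 3, which had the highest hepatocyte markers, was added after the data were seen. In this fit of fewer mice, 2433 of 13639 genes tested and 3 of the 10 were called with age in wild-type mice.

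Over all genes, the number called between genotypes moved with the filter and the tool. Without the filter 33 genes were called at 3 mo, 14 at 19 mo and 5 for the interaction, and with DESeq2 66, 64 and 28. Without 1 mouse, 3 to 14 genes were called at 3 mo (lowest without V338Y mouse 3) and 2 to 7 at 19 mo (lowest without wild-type mouse 4). The cause was not tested.

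The replicate block, in which mice of equal number form a pair, left 2229 of 13657 genes called with age in wild-type mice and 3 of the 10. In V338Y mice it left 5 of the 10. There, 5505 to 7101 of all genes were called with age over the settings besides leaving out each mouse in turn. The block called 110 genes between genotypes at 19 mo and 28 for the interaction. The numbers pair mice by the data at 19 mo only, where 1 pair of unequal numbers reached 0.467. Elsewhere mice of equal number had correlations between -0.162 and 0.141, and not every mouse correlated best with its own number. Between the ages the block rests on 2 such pairs in wild-type and 3 in V338Y mice, with mean correlations of 0.010 and -0.051. Age calls lost under the block are therefore lost in a fit that draws on fewer mice. Under the block the 19 mo genotype differences became 0.0016 for Igf1r, -0.065 for Igfbp6 and -0.11 for Irs1, and the interactions 0.034 for Igfbp3 and 0.052 for Irs2. The block changed no other call between genotypes among the 10 genes.

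Values near 0 changed sign, all without a call. The 19 mo genotype difference of Igfbp6 was -0.0059 without the filter and -0.0064 in a fit of all 15 mice, and the interaction of Igfbp3 was 0.0058 with upper-quartile factors. Without the mice numbered 5 at 19 mo, an alternative added after the data were seen, the genotype differences were 0.00026 for Igf2r, 0.086 for Igfbp3 and -0.0069 for Igfbp5, and the interactions 0.0088 for Insr, 0.20 for Igfbp3 and 0.26 for Irs2. Without 1 mouse, the age difference in wild-type mice ranged from -0.0028 to 0.11 for Igfbp4 and from -0.15 to 0.32 for Igfbp6. In V338Y mice it ranged from -0.15 to 0.26 for Igf1 and from -0.11 to 0.23 for Igfbp6. The genotype difference at 3 mo ranged from -0.25 to 0.0094 for Igf1 and from -0.31 to 0.16 for Igfbp3. At 19 mo it ranged from -0.24 to 0.0079 for Igf1r, from -0.14 to 0.50 for Igfbp5, from -0.16 to 0.30 for Igfbp6 and from -0.091 to 0.20 for Irs1. The interaction ranged from -0.28 to 0.19 for Igfbp3, from -0.30 to 0.17 for Igfbp6, from -0.19 to 0.12 for Insr and from -0.38 to 0.44 for Irs2.

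Divided by the longest transcript, the mean over the 15 mice was 5.10 CPM per kb for Igf1, 1.5 for Igf1r, 14.7 for Insr, 10.2 for Igfbp3 and 13.3 for Igfbp4. Irs2 and Igf1r, with the lowest counts, have the largest counting error of the receptors and substrates.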
